A study of Homo sapiens with 12 samples.

Results

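The endoplasmic reticulum (ER) folds and checks the proteins that a cell secretes or places in its membranes. When unfolded proteins accumulate there, the sensors ATF6, ERN1 (IRE1) and EIF2AK3 (PERK) start the unfolded protein response. ATF6 and spliced XBP1, the product of the ERN1 branch, raise transcription of chaperones and of factors that send misfolded proteins for degradation, whereas EIF2AK3 phosphorylates eIF2alpha and so raises translation of the transcription factor ATF4. Other eIF2alpha kinases reach ATF4 from amino acid shortage, haem shortage or viral RNA, so that ATF4 targets can be transcribed with or without the chaperone branches.

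The genes described here are 35 ER chaperones, folding enzymes, degradation factors and sensors of the unfolded protein response, chosen by gene symbol to ask whether a response of ATF4 target genes to depletion of chromatin regulators came with an ER response. Of these, 34 were measured, among 18417 genes in all. The protein disulfide isomerase PDIA3 was not named, because both of its transcript clusters (the probe sets of these arrays) are also annotated with the pseudogene PDIA3P1.

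All samples were NCCIT cells, a human embryonal carcinoma line of pluripotent character. The cells were transfected with siRNA against WDR5, a core subunit of the MLL/COMPASS complexes that methylate H3K4 (siWDR5), against EED, a subunit of Polycomb repressive complex PRC2 (siEED), against RNF2, the H2A ubiquitin ligase of PRC1 (siRNF2), against EED and RNF2 together (siEED+RNF2), against SETD2, the enzyme that trimethylates H3K36 (siSETD2), or with a non-targeting control (siNTC). Each of the 6 groups had 2 Affymetrix Human Gene ST arrays. Transfections were made 24 and 48 hours after seeding and the cells were harvested at 96 hours, per the methods of the study, which do not describe siSETD2. The dual transfection received both siRNA pools and more transfection reagent than a transfection with 1 pool, so the added depletion and the added reagent cannot be told apart. The siNTC arrays are titled as a re-analysis, and every comparison with siNTC shares these 2 arrays. Below, the 4 knockdowns other than siSETD2 are called the WDR5 and Polycomb knockdowns. Nothing in the labels says that replicates came from separate cultures, so the p-values measure the spread between arrays, which may be technical.

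Values are log2 expression, and every fold change below is on that scale unless a fold is written. A gene was called higher or lower where the Benjamini-Hochberg adjusted p of limma, taken over all 18417 genes, was under 0.05 and the fold change was at least 1.5 (0.585 on the log2 scale). The words rose and fell are kept for such calls.

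The transcript aimed at was reduced where it could be measured. WDR5 stood at 8.39 and 8.24 in siWDR5 against 9.48 and 9.58 in siNTC. EED stood at 8.25 and 8.14 in siEED and at 7.93 and 7.82 in siEED+RNF2 against 9.55 and 9.43, and SETD2 at 9.01 and 9.08 in siSETD2 against 10.78 and 10.81. EED was also below siNTC in the other groups, with means of 8.83 in siRNF2, 8.95 in siWDR5 and 9.06 in siSETD2. WDR5 was above its siNTC mean of 9.53 in the other knockdowns, with means of 9.84 in siEED to 10.09 in siEED+RNF2. SETD2 was below its siNTC mean of 10.79 in the other knockdowns, with means of 10.29 in siEED+RNF2 to 10.74 in siWDR5. The RNF2 transcript was not analysed here. The correlation between the arrays of a group was 0.9960 to 0.9970 over all clusters. Of 13 markers of pluripotent cells 10 were measured, with group means of 7.3 to 7.67 for UTF1 and 10.36 to 12.83 for the other nine. Of these 10, LIN28A fell in siWDR5 (by 0.68), DNMT3B and GDF3 in siRNF2 (by 0.71 and 0.59) and L1TD1 and DNMT3B in siEED+RNF2 (by 1.08 and 0.62), while DPPA4 and L1TD1 rose in siSETD2 (0.59 and 0.67). Of 9 yolk sac and endoderm, 8 fibroblast, 7 trophoblast and 5 neuroectoderm markers, the trophoblast gene TFAP2A alone was called, lower in siWDR5 (-0.64) and siSETD2 (-1.61). The part of these differences in the results below was not tested. In bulk RNA, fewer cells of a kind and less RNA per cell cannot be told apart.

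The response elements of this pathway can be read in the promoters of its genes. The ER stress element ERSE is CCAAT, 9 spacer bases and CCACG, and is bound by ATF6 with NF-Y. ERSE-II is a shorter element that joins an inverted CCAAT to CCACG. The ATF4 composite element pairs a C/EBP with an ATF site. RefSeq promoter windows (GRCh38.p14, 250 bases before to 50 after a transcript start) were found for 32 of the 34 members and searched on both strands. The sites below are a selection made with results known, with the CCAAT and CCACG parts in capitals and 5 bases on each side. Sites of CANX, CRELD2, ERO1B, PDIA6 and HYOU1 are not shown. They read 5′ to 3′ on the strand that holds the element.

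HSPA5, ERSE, chr9:125241386-125241414 (-): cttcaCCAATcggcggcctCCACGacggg
HSP90B1, ERSE, chr12:103930211-103930239 (+): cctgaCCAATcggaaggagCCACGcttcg
HSP90B1, ERSE, chr12:103930316-103930344 (-): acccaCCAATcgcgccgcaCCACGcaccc
CALR, ERSE, chr19:12938379-12938407 (-): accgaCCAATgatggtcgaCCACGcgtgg
XBP1, ERSE, chr22:28800598-28800626 (-): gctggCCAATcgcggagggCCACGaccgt
SDF2L1, ERSE-II, chr22:21642109-21642129 (-): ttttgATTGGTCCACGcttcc

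HERPUD1 was the member with a match to both kinds of element. Its stretch from 190 to 91 bases before the start is shown with the composite element, which lies on the reverse strand, and the ERSE-II in capitals. CLGN, the member with the largest change, had no match to ERSE, ERSE-II or the composite element, and the 100 bases before its start are given for comparison.

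HERPUD1, chr16:56931952-56932051 (+): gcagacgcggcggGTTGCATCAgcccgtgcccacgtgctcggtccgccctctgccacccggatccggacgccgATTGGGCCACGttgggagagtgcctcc
CLGN, chr4:140427649-140427748 (-): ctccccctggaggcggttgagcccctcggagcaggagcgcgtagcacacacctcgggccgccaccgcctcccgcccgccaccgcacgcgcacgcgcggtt

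ERSE was found in 8 of 32 members (25.0%), namely HSPA5, HSP90B1, CALR, CANX, CRELD2, ERO1B, PDIA6 and XBP1, against 0.133% of the 14239 tested genes that have a window and 0.0769% of all 35116 windows. ERSE-II was found in 3 members (9.38%), HERPUD1, HYOU1 and SDF2L1, against 0.119% of tested genes. The composite element was in 1 member, HERPUD1 (3.12%), against 3.58% of tested genes and 15 of 37 genes (40.5%) of the ATF4 list described below. None of these 37 ATF4 genes held ERSE or ERSE-II in these windows. The ERSE and ERSE-II letters share CCACG, which alone was in 71.9% of members and 51.1% of tested genes. The core of the UPR element was in DNAJC10 and HYOU1 (6.25%), against 2.84% of tested genes. These are matches of letters, not measured sites.

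Of the 34 members, 24 were called in no comparison with siNTC. The share of all genes called in none was not counted, so this number does not show the members to be quieter than other genes. In siWDR5, 2 of 34 members rose, CLGN and HERPUD1 (5.88%, against 2.8% of all genes), and 0 fell (against 3.22% of all genes). In siEED, the same 2 members rose (against 3.74% of all genes), and DNAJB9 and SDF2L1 fell (5.88%, against 2.63%). In siRNF2, 5 members rose (14.7%, against 6.37% of all genes), with SEL1L, XBP1 and ATF6 added to CLGN and HERPUD1, and HSP90B1 and SDF2L1 fell (5.88%, against 3.81%). In siEED+RNF2, CLGN and HERPUD1 rose (5.88%, against 5.49%) and HSP90B1, DNAJC3 and DNAJC10 fell (8.82%, against 6.02%). In siSETD2, SEL1L rose (2.94%, against 2.64%) and 0 members fell (against 3.18%). The 0 members called lower by limma in siWDR5 and siSETD2 compare with 10 and 6 members below siNTC at an unadjusted p under 0.05. The share of all genes at that unadjusted p was not counted. At an adjusted p under 0.05 and any fold, 9 and 4 members were lower (against 18.6% and 15.8% of all genes).

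The median log2 fold change of the 34 members was -0.040 in siWDR5, where that of all genes was -0.027. In siSETD2 it was 0.094 against -0.010. In the Polycomb knockdowns it was -0.080 against -0.018 with siEED+RNF2, -0.042 against -0.038 with siRNF2 and -0.013 against -0.033 with siEED (members 0.016 under quantile normalization). The 95% interval of the fold change lay wholly below a 1.5-fold rise for 32 members in each of siWDR5, siEED and siSETD2, for 30 in siEED+RNF2 and for 27 in siRNF2. For those members a rise of 1.5-fold or more lay outside the interval. The intervals rest on the spread between arrays, which may be technical, so they do not bound the change between separate cultures. In the WDR5 and Polycomb knockdowns, 13 members had means below siNTC in all 4 groups and 10 above. These 4 comparisons share the siNTC arrays, and 43.7% to 46.9% of all genes lay above siNTC in each. The share of all genes on 1 side in all 4 was not counted.

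**Figure D1:**
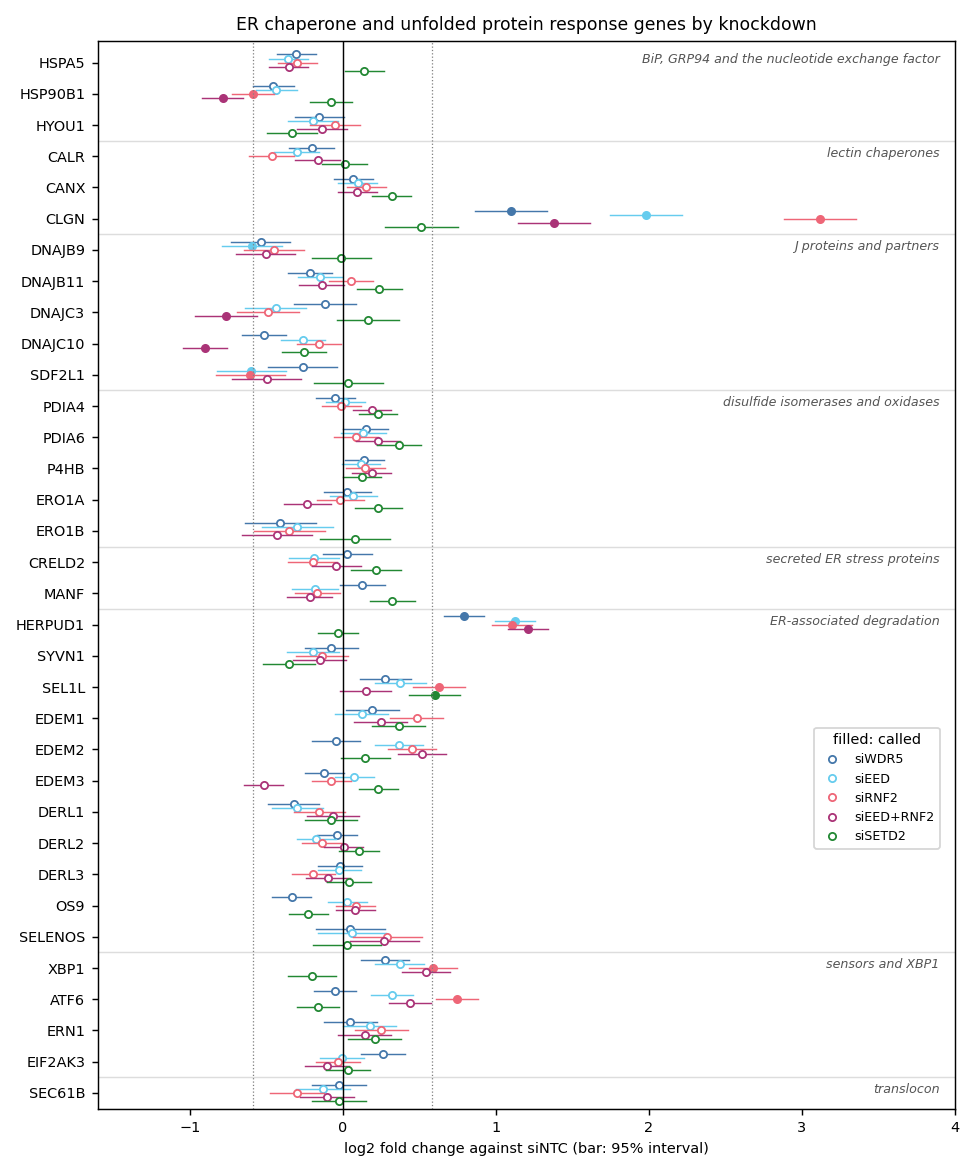
Log2 fold change against siNTC (x axis) of the 34 measured members, grouped by role (y axis), in the 5 knockdowns. Points are the fitted values of 2 against 2 arrays, bars are 95% intervals, filled points are called, and dotted lines mark a 1.5-fold change. CLGN and HERPUD1 lie to the right in the 4 WDR5 and Polycomb knockdowns, and most other members lie between the dotted lines.

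Genes of the ATF4 arm rose in the same knockdowns. The list of 48 genes holds ATF4, its partners and its known targets. These include genes of amino acid synthesis, transport and tRNA charging and other stress-induced genes such as GDF15, INHBE and LAMP3. The list was written with earlier results of these data known, so its direction is no independent evidence. Of its 47 measured genes, 41 rose in siEED+RNF2 and 41 in siRNF2, 38 in siEED and 30 in siWDR5, and 0 fell in these 4 groups. Over all genes 5.49%, 6.37%, 3.74% and 2.8% rose in that order. Its median log2 fold changes were 1.209, 1.225, 1.12 and 0.908 in that order. The list's genes with the largest changes were LAMP3, INHBE and GDF15, which rose by 4.27, 4.19 and 4.11 in siRNF2. LAMP3 was not called in siWDR5 (0.515). With siSETD2 only DDIT4 rose (1.49), and CHAC1, EIF4EBP1, SLC6A9 and VLDLR fell (by 0.59 to 0.85), with a median of -0.011 (2.64% of all genes rose there and 3.18% fell). These 5 names were chosen after their values were seen.

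DDIT3 (CHOP), a stress transcription factor downstream of ATF4, measured 9.05 and 9.10 in siNTC, 10.31 and 10.38 in siWDR5, 10.95 and 10.91 in siEED+RNF2, 10.98 and 11.18 in siRNF2 and 10.69 and 10.77 in siEED. All arrays of these 4 knockdowns lay above those of siNTC, and siSETD2, at 8.94 and 8.89, lay below. DDIT3 rose by 1.27 in siWDR5, 1.86 in siEED+RNF2, 2.01 in siRNF2 and 1.65 in siEED. The ATF4 transcript itself was 0.20 to 0.48 above siNTC in the 4 groups and was not called. ATF4 is regulated largely at translation, which these arrays do not measure.

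**Figure D2:**
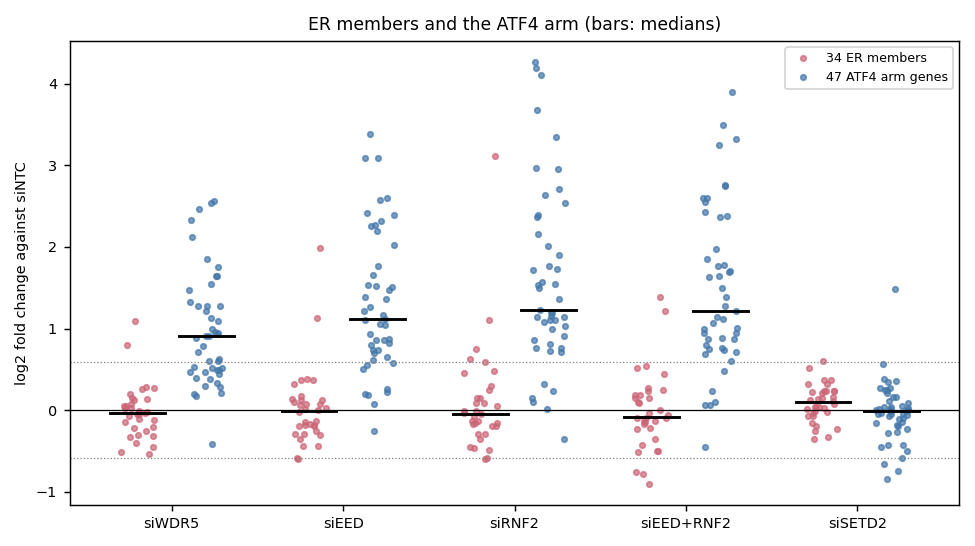
Log2 fold change against siNTC (y axis) of the 34 ER members and of the 47 measured ATF4 arm genes in each knockdown (x axis). Each point is a gene, bars are medians and dotted lines mark a 1.5-fold change. The ATF4 arm medians lie between 0.908 and 1.225 in the WDR5 and Polycomb knockdowns, and the ER medians lie between -0.080 and -0.013 there.

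The main Hsp70 and Hsp90 chaperones of the ER were lower than in siNTC in the 4 knockdowns with the ATF4 change. HSPA5 (BiP), the Hsp70 of the ER lumen that also holds the sensors inactive, is a standard readout of ER stress and is described for that reason, chosen after its values were seen. HSPA5 measured 12.06 and 12.02 in siNTC, 12.14 and 12.22 in siSETD2, 11.73 and 11.74 in siWDR5, 11.68 and 11.70 in siEED+RNF2, 11.77 and 11.72 in siRNF2 and 11.68 and 11.69 in siEED. All 8 arrays of the WDR5 and Polycomb knockdowns lay below both siNTC arrays, and both siSETD2 arrays lay above them. The differences from siNTC were -0.30 ± 0.06 (SE) for siWDR5, -0.35 for siEED+RNF2, -0.30 for siRNF2 and -0.35 for siEED, with limma adjusted p of 0.0017, 0.00041, 0.0015 and 0.00062, but the folds of 1.23 to 1.28 stayed under the 1.5 needed for a call. The upper ends of the 95% intervals were -0.18, -0.22, -0.17 and -0.23, all below 0.

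HSP90B1 (GRP94), the Hsp90 of the ER, measured 13.42 and 13.50 in siNTC, 13.40 and 13.36 in siSETD2, 13.02 and 13.00 in siWDR5, 12.67 and 12.68 in siEED+RNF2, 12.93 and 12.82 in siRNF2 and 13.03 and 13.02 in siEED. The 4 knockdowns again lay below siNTC without overlap, with siEED+RNF2 the lowest. Both siSETD2 arrays lay below siNTC too, though nearer to it than any array of the 4 knockdowns. HSP90B1 fell by 0.78 ± 0.06 in siEED+RNF2 (limma adjusted p = 1.3e-06) and by 0.59 in siRNF2 (adjusted p = 1.6e-05). The siRNF2 call sits at the fold threshold and was lost without siRNF2 replicate 2 (-0.53) or without siNTC replicate 2 (-0.55), and also under quantile normalization (-0.52) or centring on clusters (-0.53). HYOU1 (GRP170), the nucleotide exchange factor of HSPA5, was within 0.05 to 0.33 below siNTC in all 5 knockdowns and was not called.

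Calmegin (CLGN) had the largest change of any member. CLGN is a calnexin relative known from the testis, where it acts in the folding of sperm membrane proteins. It measured 5.17 and 5.32 in siNTC, 5.85 and 5.67 in siSETD2, 6.19 and 6.49 in siWDR5, 6.55 and 6.71 in siEED+RNF2, 7.13 and 7.32 in siEED, and 8.39 and 8.33 in siRNF2. The 6 groups did not overlap in this order. The siNTC mean of 5.25 lay above 29.5% of all genes and above 19 of the 29 markers of other cell types in siNTC. Those markers ran from 4.25 to 12.34 with a median of 4.83. The highest was TFAP2A, a bright gene in these cells, so their range does not mark background. No detection call was used, so whether siNTC held CLGN RNA above background is not known, and the folds over it may understate the change. As measured, CLGN rose 2.14-fold in siWDR5 (log2 1.10 ± 0.11 SE, limma adjusted p = 1.9e-05), 2.60-fold in siEED+RNF2, 3.95-fold in siEED and 8.68-fold in siRNF2 (log2 3.12, adjusted p = 2.8e-09). In siSETD2 it was 0.51 above siNTC and not called, but it passed the fold threshold without siNTC replicate 2 (0.59) and without siSETD2 replicate 2 (0.60).

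The other lectin chaperones, which bind glycoproteins by their sugars, stayed under the fold threshold. Calnexin (CANX) was 0.07 to 0.15 above siNTC in the 4 knockdowns and 0.32 above in siSETD2. Calreticulin (CALR) was 0.16 to 0.46 below siNTC in the 4 knockdowns and 0.01 above in siSETD2.

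Of the 5 J proteins and partners, 2 fell in siEED (40%, against 2.63% of all genes) and 2 in siEED+RNF2 (40%, against 6.02%). In siRNF2, 1 fell (20%, against 3.81%), and 0 fell in siWDR5 and siSETD2 (against 3.22% and 3.18%). In a group of 5 these shares rest on 1 or 2 genes. DNAJB9 (ERdj4), a J protein that returns HSPA5 to ERN1 and is a known XBP1 target, measured 7.81 and 7.64 in siNTC, 7.72 and 7.72 in siSETD2, 7.18 and 7.20 in siWDR5, 7.28 and 7.17 in siEED+RNF2, 7.41 and 7.15 in siRNF2 and 7.11 and 7.16 in siEED. All 8 arrays of the 4 knockdowns lay below siNTC. DNAJB9 fell by 0.59 ± 0.09 in siEED (limma adjusted p = 0.00034) and was 0.45 to 0.54 below siNTC in the other three. The siEED call was lost without siNTC replicate 1 (-0.51) or siEED replicate 1 (-0.57) and when cluster medians were used to centre the arrays (-0.56), and without siNTC replicate 2 DNAJB9 was called in siWDR5 (-0.62) and in siEED+RNF2 (-0.59).

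DNAJC3 (P58IPK), an inhibitor of EIF2AK3 and related kinases, measured 8.72 and 8.52 in siNTC, 8.89 and 8.68 in siSETD2, 8.41 and 8.60 in siWDR5, 7.89 and 7.83 in siEED+RNF2, 8.13 and 8.14 in siRNF2 and 8.22 and 8.14 in siEED. The siWDR5 arrays overlapped those of siNTC and the 3 Polycomb groups lay below. DNAJC3 fell by 0.76 ± 0.09 in siEED+RNF2 (limma adjusted p = 3.8e-05).

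DNAJC10 (ERdj5), a reductase that opens disulfides of proteins bound for degradation, measured 10.98 and 10.89 in siNTC, 10.69 and 10.67 in siSETD2, 10.44 and 10.41 in siWDR5, 10.02 and 10.05 in siEED+RNF2, 10.85 and 10.72 in siRNF2 and 10.64 and 10.71 in siEED. All knockdown arrays lay below siNTC, including siSETD2, and siEED+RNF2 was apart from the rest. DNAJC10 fell by 0.90 ± 0.07 in siEED+RNF2 (limma adjusted p = 7e-07) and was 0.51 below siNTC in siWDR5.

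SDF2L1, a partner of the J protein DNAJB11 that keeps substrates from aggregating, measured 7.16 and 6.99 in siNTC, 7.25 and 6.98 in siSETD2, 6.84 and 6.79 in siWDR5, 6.59 and 6.57 in siEED+RNF2, 6.35 and 6.60 in siRNF2 and 6.54 and 6.42 in siEED. The 4 knockdowns lay below siNTC and siSETD2 overlapped it. SDF2L1 fell by 0.60 ± 0.10 in both siEED and siRNF2 (limma adjusted p of 0.00086 and 0.00058) and both calls were close to the fold threshold. They were lost without siNTC replicate 1 (-0.51 and -0.52), and also without siEED replicate 2 (-0.54) and without siRNF2 replicate 1 (-0.48). Centring each array on its cluster median also ended both (-0.57 and -0.55), and quantile normalization the one in siRNF2 (-0.56). DNAJB11 was between -0.21 and 0.24 from siNTC in all 5 knockdowns and was not called.

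Disulfide isomerases and oxidases gave no call. PDIA4, PDIA6 and P4HB, which make and rearrange disulfide bonds, ranged from -0.05 to 0.37 over the 5 knockdowns. P4HB has a second transcript cluster that was not used, with differences from siNTC between -0.06 and 0.16. ERO1A, the oxidase that recharges them and a gene also known from hypoxia, ranged from -0.23 to 0.23. ERO1B was 0.30 to 0.43 below siNTC in the 4 knockdowns, and without siNTC replicate 1 it was called lower in siEED+RNF2 (-0.59). The secreted stress proteins CRELD2 and MANF, whose transcripts are sensitive markers of ER calcium loss and ER stress, ranged from -0.22 to 0.13 in the 4 knockdowns and were 0.22 and 0.33 above siNTC in siSETD2, without a call.

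Among 11 factors of ER-associated degradation, HERPUD1 rose in 4 knockdowns. HERPUD1 is a membrane protein that assembles the ubiquitin ligase complex around SYVN1. It measured 8.87 and 8.94 in siNTC, 8.87 and 8.88 in siSETD2, 9.70 and 9.70 in siWDR5, 9.98 and 10.04 in siRNF2, 10.02 and 10.05 in siEED and 10.15 and 10.08 in siEED+RNF2. The siNTC and siSETD2 arrays overlapped and all others lay above them. HERPUD1 rose 1.73-fold in siWDR5 (log2 0.79 ± 0.06 SE, limma adjusted p = 3.1e-06), 2.15-fold in siRNF2, 2.18-fold in siEED and 2.31-fold in siEED+RNF2 (log2 1.21, adjusted p = 4e-08). Its difference in siSETD2 was -0.03, with a 95% interval of -0.17 to 0.10. HERPUD1, which holds the composite element, thus rose in the 4 knockdowns in which the ATF4 list rose, and whether the element has a part in that was not tested.

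SEL1L, the scaffold of the SYVN1 complex, measured 8.13 and 8.14 in siNTC, 8.75 and 8.72 in siSETD2, 8.36 and 8.47 in siWDR5, 8.35 and 8.23 in siEED+RNF2, 8.86 and 8.67 in siRNF2 and 8.49 and 8.54 in siEED. All knockdown arrays lay above siNTC. SEL1L rose by 0.63 ± 0.08 in siRNF2 (limma adjusted p = 4.6e-05) and by 0.60 in siSETD2 (adjusted p = 0.00012), and the siRNF2 call was lost without siRNF2 replicate 1 (0.53) and when gene medians were used to centre the arrays (0.50). SYVN1 (HRD1), the ubiquitin ligase itself, was 0.07 to 0.35 below siNTC in all 5 knockdowns.

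The other degradation factors were not called in any comparison with siNTC. EDEM1, EDEM2 and EDEM3, which trim mannose from misfolded glycoproteins, ranged from -0.12 to 0.52 apart from EDEM3 in siEED+RNF2 (-0.52). EDEM1 passed the threshold in siRNF2 without siRNF2 replicate 2 (0.59), and EDEM2 in siEED+RNF2 without siEED+RNF2 replicate 1 (0.59). DERL1, DERL2 and DERL3, the derlins of the retrotranslocation channel, ranged from -0.32 to 0.11. OS9, a lectin that reads trimmed glycans, ranged from -0.34 to 0.08, and SELENOS, which anchors the VCP ATPase, from 0.03 to 0.29. The translocon subunit SEC61B ranged from -0.30 to -0.02.

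**Figure D3:**
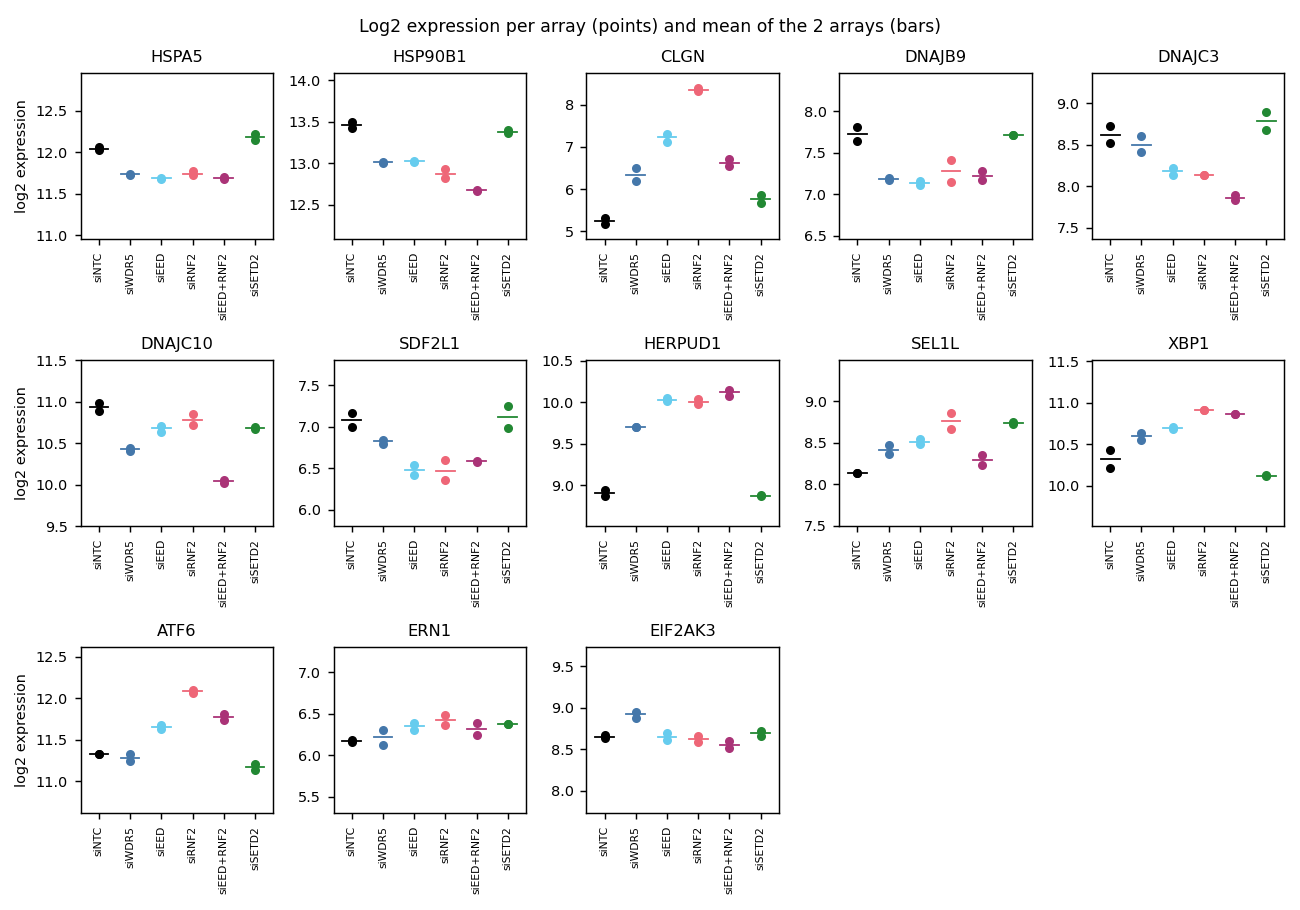
Log2 expression (y axis) of 13 members in the 6 groups (x axis). Points are the 2 arrays of a group and bars their mean, and each panel has its own scale of at least 2 log2 units. HSPA5 and HSP90B1 lie below siNTC in the WDR5 and Polycomb knockdowns, and CLGN and HERPUD1 lie above it.

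Of the sensors, ATF6 rose in siRNF2. ATF6 measured 11.33 and 11.33 in siNTC, 11.20 and 11.13 in siSETD2, 11.24 and 11.32 in siWDR5, 11.73 and 11.81 in siEED+RNF2, 12.10 and 12.06 in siRNF2 and 11.63 and 11.68 in siEED. The Polycomb groups lay above siNTC and the siWDR5 and siSETD2 arrays below it. ATF6 rose by 0.75 ± 0.06 in siRNF2 (limma adjusted p = 2.8e-06) and was 0.32 above siNTC in siEED and 0.44 in siEED+RNF2.

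XBP1 measured 10.22 and 10.43 in siNTC, 10.12 and 10.13 in siSETD2, 10.64 and 10.55 in siWDR5, 10.87 and 10.87 in siEED+RNF2, 10.91 and 10.91 in siRNF2 and 10.68 and 10.71 in siEED. The 4 knockdowns lay above both siNTC arrays and siSETD2 below them. XBP1 rose by 0.59 ± 0.07 in siRNF2 (limma adjusted p = 4.8e-05) and was 0.55 above siNTC in siEED+RNF2. Without siNTC replicate 1 the siRNF2 difference was 0.49 and not called, and without siNTC replicate 2 the siEED+RNF2 difference was 0.65 and called. With arrays centred on their median over genes the siRNF2 difference was 0.46 and not called. The siEED+RNF2 difference was called under quantile normalization (0.60) and with arrays centred on clusters (0.59). Quantile normalization also brought XBP1 past the threshold in siEED against siSETD2 (0.60). The value is for the whole transcript cluster and does not separate spliced from unspliced XBP1 RNA.

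ERN1, the kinase and nuclease that splices XBP1, measured 6.16 and 6.19 in siNTC, 6.38 and 6.38 in siSETD2, 6.13 and 6.31 in siWDR5, 6.39 and 6.24 in siEED+RNF2, 6.37 and 6.48 in siRNF2 and 6.30 and 6.39 in siEED. Its differences of 0.05 to 0.25 were not called. EIF2AK3, the ER kinase upstream of ATF4, measured 8.67 and 8.63 in siNTC, 8.72 and 8.66 in siSETD2, 8.88 and 8.95 in siWDR5, 8.60 and 8.51 in siEED+RNF2, 8.66 and 8.58 in siRNF2 and 8.61 and 8.69 in siEED. It was 0.26 above siNTC in siWDR5 and within 0.10 of it elsewhere, with no call. These are transcript levels, and the activity of the sensors was not measured.

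The median change of members with ERSE or ERSE-II was below that of members without in all 5 knockdowns. Of the 11 with either element, HERPUD1 rose in 4 knockdowns and XBP1 in siRNF2, while SDF2L1 fell in siEED and siRNF2 and HSP90B1 in siRNF2 and siEED+RNF2. Their median log2 fold changes were 0.037 in siSETD2, -0.152 in siWDR5, -0.136 in siEED+RNF2, -0.197 in siRNF2 and -0.193 in siEED. The medians of the 21 members with neither were, in that order, 0.148, -0.036, 0.005, -0.010 and 0.031. These medians are descriptions of lists chosen with results known, and no test was made between them.

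**Figure D4:**
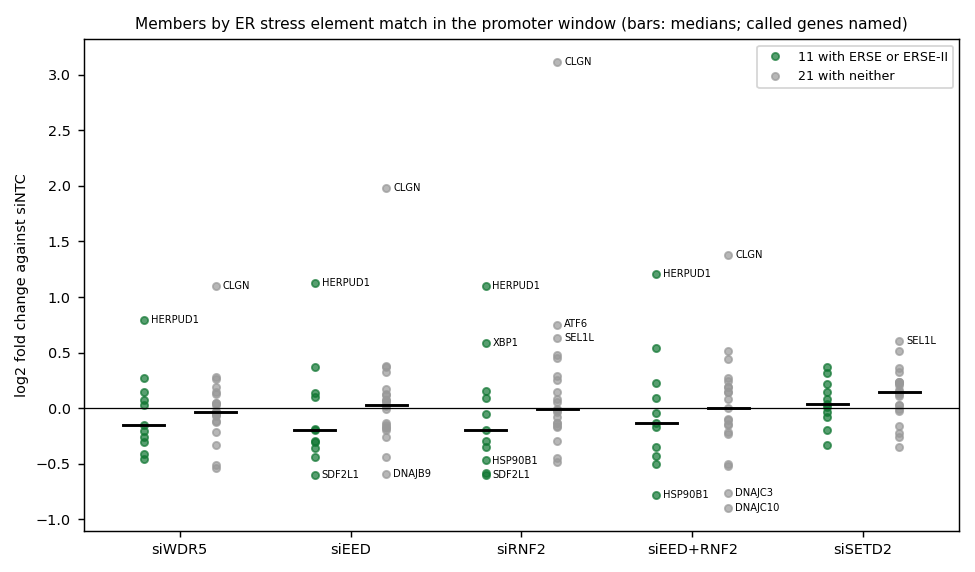
Log2 fold change against siNTC (y axis) of the 11 members with an ERSE or ERSE-II match in their promoter window and the 21 with neither, in each knockdown (x axis). Points are genes, bars are medians and called genes are named. The medians of members with an element lie between -0.197 and -0.136 in the WDR5 and Polycomb knockdowns.

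Differences between knockdowns do not use the siNTC means, although the siNTC arrays enter the pooled spread. CLGN rose by 1.14 ± 0.11 in siRNF2 against siEED (limma adjusted p = 0.00011), the only member called there (2.94%, against 0.793% of all genes higher), and 0 members were lower (against 0.467%). In siEED+RNF2 against siEED, 0 members rose (against 0.157%) and CLGN, DNAJC10 and EDEM3 fell by 0.60, 0.64 and 0.59 (8.82%, against 2.75%). The CLGN difference was under the threshold without siEED replicate 2 (-0.51) and without siEED+RNF2 replicate 1 (-0.52), and quantile normalization ended the calls on CLGN (-0.58) and EDEM3 (-0.57). In siEED+RNF2 against siRNF2, 0 members rose (against 0.239%) and CLGN and DNAJC10 fell by 1.74 and 0.75 (5.88%, against 3.03%). CLGN was thus lower in the dual knockdown than in either single knockdown. Where no member was called by limma, the counts at an unadjusted p under 0.05 were 4 lower in siRNF2 against siEED, 4 higher in siEED+RNF2 against siEED and 4 higher in siEED+RNF2 against siRNF2. At an adjusted p under 0.05 and any fold, these counts were 0, 0 and 2 (against 4.08%, 5.02% and 6.03% of all genes).

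Measured against siSETD2 in place of siNTC, HERPUD1 rose in the WDR5 and Polycomb knockdowns by 0.83 (siWDR5), 1.24 (siEED+RNF2), 1.14 (siRNF2) and 1.16 (siEED). These comparisons take a second knockdown as reference and share the siSETD2 arrays. In siWDR5, HERPUD1 was the only member called higher (2.94%, against 2.86% of all genes), and 0 were lower (against 2.99%, with 20 members below siSETD2 at an unadjusted p under 0.05). At an adjusted p under 0.05 and any fold, 17 members were lower in siWDR5 (against 17.4% of all genes). CLGN stood 0.58 above siSETD2 there, just under the threshold, and passed it without siWDR5 replicate 1 (0.73) or siSETD2 replicate 1 (0.67). In siEED, CLGN and HERPUD1 rose (5.88%, against 3.85%) and DNAJC3 and SDF2L1 fell by 0.60 and 0.64 (5.88%, against 2.43%).

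In siRNF2 against siSETD2, CLGN, HERPUD1, XBP1 and ATF6 rose (11.8%, against 5.49%), the last pair by 0.79 and 0.91, and DNAJC3 and SDF2L1 fell by 0.65 and 0.64 (5.88%, against 3.18%). In siEED+RNF2, the same 4 members rose (11.8%, against 4.89%), and HSP90B1, DNAJC3, DNAJC10 and EDEM3 fell by 0.71, 0.93, 0.65 and 0.75 (11.8%, against 5.54%). The DNAJC3 and SDF2L1 calls in siEED and siRNF2 were lost without siSETD2 replicate 1, where the differences were -0.50 to -0.55. Those in siEED were also lost without siEED replicate 2 (-0.57 and -0.58), and SDF2L1 in siRNF2 without siRNF2 replicate 1 (-0.52). The ATF6 call in siEED+RNF2 was lost without siEED+RNF2 replicate 2 (0.56) or siSETD2 replicate 2 (0.57) and when centring used gene medians (0.53). There, quantile normalization ended the DNAJC10 call (-0.58), and SDF2L1 was called lower without siSETD2 replicate 2 (-0.67). The balance over all genes also moved with gene centring, from 1012 higher and 585 lower to 685 and 1062 in siRNF2, from 709 and 448 to 542 and 664 in siEED, and from 900 and 1020 to 689 and 1274 in siEED+RNF2. HSPA5 was 0.44 to 0.50 below siSETD2 in the 4 knockdowns and under the fold threshold in each.

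The interaction is the log2 fold change of the dual knockdown less those of both single knockdowns, all taken against siNTC. It was called above 0 for CALR and SDF2L1 (5.88% of members, against 3.89% of all genes) and below 0 for CLGN, HERPUD1, SEL1L and ATF6 (11.8%, against 7.43%). Centred on gene medians, the counts over all genes turned from 717 above and 1369 below 0 to 1381 and 876. For HERPUD1 the single changes added to 2.23 and the dual change was 1.21, giving an interaction of -1.02 ± 0.08 (limma adjusted p = 8.8e-06). The dual change of HERPUD1 was thus close to each single change (1.13 and 1.10) rather than to their sum. For CLGN the singles added to 5.10 against 1.38 in the dual knockdown, an interaction of -3.72 ± 0.15 (adjusted p = 5.6e-08), and here the dual change lay below both single changes. The size of this value depends on the low siNTC level of CLGN, and the comparisons of the dual with the single knockdowns above do not. SEL1L (sum 1.01, dual 0.15) and ATF6 (sum 1.07, dual 0.44) also fell short of the sum, while CALR (sum -0.77, dual -0.17) and SDF2L1 (sum -1.20, dual -0.50) were reduced by less than it. The CALR value was close to the threshold.

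**Figure D5:**
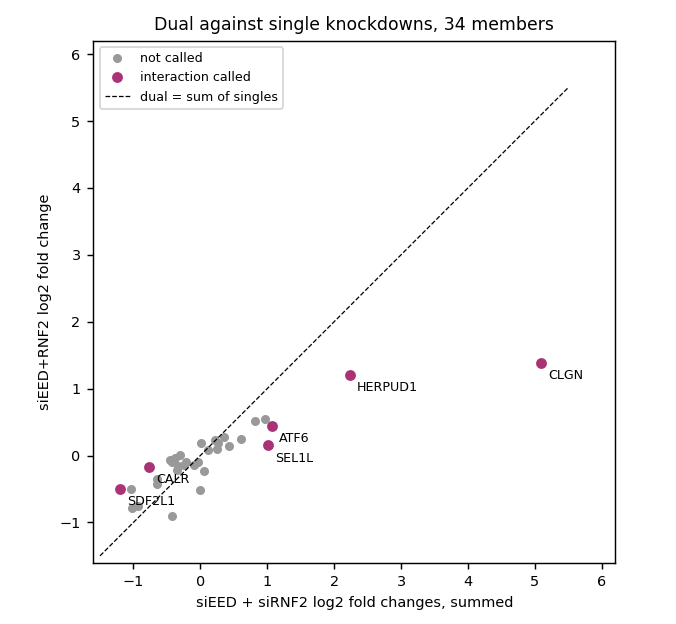
Log2 fold change of each of the 34 members in siEED+RNF2 (y axis) against the sum of its log2 fold changes in siEED and siRNF2 (x axis), all against siNTC. The dashed line is where both are equal and filled purple points are members with a called interaction. CLGN (sum 5.10, dual 1.38) and HERPUD1 (sum 2.23, dual 1.21) lie below the line.

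Other ER genes were taken from 5 further lists, whose counts can be read against the shares of all genes given above for each knockdown (2.64% to 6.37% higher and 2.63% to 6.02% lower). Of 34 measured further folding enzymes, 4 rose in siRNF2 (11.8%, against 6.37%), 3 in siEED+RNF2 (8.82%, against 5.49%), 2 in siEED (5.88%, against 3.74%) and 0 in the others, and 0 to 2 fell per knockdown, with medians of -0.039 to 0.033. ERP29, a lumenal protein related to the disulfide isomerases, rose by 0.82 in siEED+RNF2, 0.65 in siRNF2 and 0.70 in siEED, and the prolyl isomerase FKBP9 by 0.75, 0.89 and 0.67. DNAJB14 fell by 0.97 in siEED+RNF2.

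Of 27 further degradation factors, 1 fell in all 4 knockdowns. This was SVIP, an inhibitor of ER-associated degradation that binds VCP and DERL1. SVIP measured 8.25 and 8.26 in siNTC, 7.88 and 8.05 in siSETD2, 6.84 and 6.59 in siWDR5, 6.86 and 6.63 in siEED+RNF2, 7.32 and 7.16 in siRNF2 and 7.20 and 7.21 in siEED. It fell by 1.54 ± 0.10 in siWDR5 (limma adjusted p = 1.2e-06), 1.51 in siEED+RNF2, 1.02 in siRNF2 and 1.05 in siEED. ERLIN1 rose in siRNF2 (0.62) and siEED+RNF2 (0.70), and UBXN4 fell by 0.97 in siEED+RNF2.

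Of 25 measured translocon, signal recognition and signal peptidase genes, 0 were called in siWDR5 and siEED. GET4 rose in siSETD2 (0.76), siRNF2 (0.67) and siEED+RNF2 (0.65), SEC62 fell by 0.65 in siEED+RNF2 and rose by 0.63 in siSETD2, and SRP68 rose in siSETD2 (0.60). Of 27 measured N-glycosylation genes, 1 or 2 rose (3.7% or 7.41%) and 1 or 2 fell per knockdown. GNPNAT1 and GFPT1 belong to the hexosamine pathway, which makes a sugar donor for glycans and includes known XBP1 targets. GNPNAT1 rose in all 5 knockdowns (by 0.74 with siSETD2, 0.78 with siWDR5, 1.12 with siEED+RNF2, 1.28 with siRNF2 and 0.99 with siEED) and GFPT1 in siRNF2 (0.98). ALG8, a glucosyltransferase of the glycan precursor, fell by 0.64 to 0.77 in the WDR5 and Polycomb knockdowns. The other genes of this list that fell were ALG12 in siWDR5 and siRNF2 (by 0.59 and 0.60) and DPAGT1 in siSETD2 (by 0.71), named after their values were seen.

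Of 33 measured ER-to-Golgi transport genes, 1 or 2 rose (3.03% or 6.06%) and 0 to 2 fell (at most 6.06%) per knockdown. SAR1B, the GTPase of COPII vesicles, rose in all 5 knockdowns (0.65 to 1.02). Other calls were BET1 higher (0.62) and TMED9 lower (-0.62) in siRNF2, and TRAPPC3 lower in siWDR5 (-0.73). LMAN1 and SEC24B were lower in siEED+RNF2 (-0.70 and -0.63). The KDEL receptor KDELR3, which returns escaped chaperones to the ER, fell by 1.36 in siWDR5 and by 0.73 in siEED, and the cargo receptor SURF4 rose in siSETD2 (0.75). The medians of the 33 genes were -0.140 to 0.033.

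Regulators outside the member list were measured for 18 of 20 genes. CREB3L1 (OASIS), an ER-anchored transcription factor processed like ATF6, rose by 1.23 in siEED+RNF2, 1.34 in siRNF2 and 0.84 in siEED. Among the other eIF2alpha kinases, EIF2AK2 (PKR) and EIF2AK4 (GCN2) fell in siWDR5 by 0.77 and 0.71, and EIF2AK2 also by 0.69 in siEED+RNF2. EIF2AK4 was 0.28 to 0.49 below siNTC in the other knockdowns, siSETD2 included, without a call. No other gene of this list was called. The share that fell was 11.1% in siWDR5 (against 3.22% of all genes) and 5.56% in siEED+RNF2 (against 6.02%). The share that rose in each Polycomb knockdown was 5.56% (against 3.74% to 6.37%).

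Outside the ER, of 20 measured genes of the cytosolic heat shock response, 5 fell in siEED+RNF2, 4 in siRNF2, 5 in siEED and 1 in siWDR5, with medians of -0.274, -0.224, -0.164 and -0.176. Over all genes 6.02%, 3.81%, 2.63% and 3.22% fell in that order. HSPB1, named after its values were seen, rose in siWDR5 (0.78) and siEED+RNF2 (0.71). The HSPA8 co-chaperone DNAJA1 fell by 1.05 in siEED+RNF2, 0.90 in siRNF2 and 0.84 in siEED, and the Hsp90 co-chaperone CHORDC1 by 1.29, 0.70 and 0.68. HSPB8 fell in siWDR5 (by 1.13) and in siSETD2 (by 1.05). Of 16 mitochondrial chaperones and proteases, the matrix protease LONP1 rose by 0.63 to 0.82 in the WDR5 and Polycomb knockdowns, and the other 15 were not called in any knockdown.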

How the data were processed

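Expression was measured on 12 Affymetrix arrays of NCCIT cells. The authors deposited 1 table of log2 values for 33297 transcript clusters. Per the submitters' processing notes, GCRMA and Partek were used, with versions not given in the sources used here. Background was thus already corrected and the arrays normalized to each other, which sets the balance of higher and lower genes, and no detection call was used. Value columns not used numbered 0. Gene names came from the platform annotation, updated through gene numbers to RefSeq (GRCh38.p14). No gene was listed for 12083 clusters, 19460 had 1 gene (19429 matched by number) and 1754 had several and stayed unnamed. A gene with more than 1 cluster (769 genes) was represented by its brightest cluster on average. Array medians were 6.29 to 6.36, and having 2 arrays per group limits the precision.

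Group means were fitted with limma 3.58.1 (R 4.3.3) using every array, with 6 residual degrees of freedom, 13 contrasts and empirical Bayes moderation. A call needed a fold of at least 1.5 besides an adjusted p (Benjamini-Hochberg) under 0.05. The members, lists and tests were chosen with earlier results of these data known. Printed with every array value were, per role, up to 4 members called against siNTC with the largest changes, the 4 sensor genes, and HSPA5, added after its values were seen. Of the other lists, up to 3 called genes with the largest changes were named, with ATF4 and DDIT3 always. RefSeq promoter windows were searched in Python 3.11.15, and figures were drawn with matplotlib 3.10.9. Alternatives tried were quantile normalization, centring of arrays on their median over genes or over clusters, no fold threshold, a replicate block, fitting just the groups compared, a variance trend with robust moderation, averaging the clusters of a gene, dropping the 30% of genes with the lowest means, and leaving out each array in turn.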

Additional observations from a re-analysis of the deposited data

Results flagged for a closer look

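For 6 members the effect of the dual knockdown differed from the sum of the single knockdowns by a test of the difference itself, the limma interaction on the log2 scale. The interaction was -3.72 for CLGN, -1.02 for HERPUD1, -0.86 for SEL1L, -0.63 for ATF6, 0.60 for CALR and 0.70 for SDF2L1. CALR was under the fold threshold without siRNF2 replicate 1 (0.53), siEED replicate 1 (0.55), siEED+RNF2 replicate 1 (0.58) or siNTC replicate 2 (0.58), under quantile normalization (0.53) and with arrays centred on clusters (0.56), and SDF2L1 without siRNF2 replicate 1 (0.58). ATF6 was under it with arrays centred on their median over genes (-0.50). Calls on CLGN, HERPUD1 and SEL1L were kept under each of these settings. DNAJB9 passed the threshold without siRNF2 replicate 1 (0.67), siNTC replicate 2 (0.62) or siEED+RNF2 replicate 2 (0.59). Centring on gene medians also brought it past the threshold (0.67). The dual transfection also received more reagent, which cannot be told apart from the second depletion.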

How the results depend on the processing

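Counts of members called were within 1.5 times of those reported under the replicate block, the fit of the compared groups, the variance trend, averaged clusters and the filter on dim genes, which kept all 34 members. Of the log2 fold changes of 13 members in 5 comparisons, 1274 alternative values kept their call or lack of one, 18 lost the call and 8 gained it. The sign turned for 12 of these 1300 values, and for 58 of 3400 over all 34 members, none of them called in either setting and each within 0.094 of 0. The members' median in siEED went from -0.013 to 0.016 with quantile normalization.

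Centring on genes moved the median fold change over all genes in siRNF2 by 0.128 (log2) and the members' median from -0.042 to -0.170. It turned the calls over all genes from 1174 higher and 701 lower to 775 and 1253 in siRNF2, from 688 and 485 to 502 and 730 in siEED, and from 1011 and 1109 to 770 and 1414 in siEED+RNF2, and in siRNF2 against siEED from 146 and 86 to 103 and 113. Members higher in siRNF2 then numbered 3 (without SEL1L and XBP1) and lower 4 (with CALR and DNAJC3), with 5 lower in siRNF2 against siSETD2 and 2 higher in siWDR5 against siSETD2. Centring on clusters, which gave 613 higher and 483 lower in siWDR5 in place of 515 and 593, left 0 members lower in siEED and 0 in siRNF2, 2 higher in siWDR5 against siSETD2 and 1 interaction above 0. Quantile normalization left 0 lower in siRNF2, 1 lower in siEED+RNF2 against siEED, 2 higher in siWDR5 against siSETD2 and 1 interaction above 0.

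With no fold threshold, members higher and lower than siNTC numbered 5 and 9 in siWDR5 (against 15.2% and 18.6% of all genes). They numbered 6 and 10 in siEED (16.5% and 18.9%) and 9 and 10 in siRNF2 (20.9% and 22.1%). In siEED+RNF2 they were 9 and 10 (20.6% and 21.5%), and in siSETD2 11 and 4 (15.8% and 15.8%). Against siSETD2 they were 5 and 17 in siWDR5 (against 14.3% and 17.4% of all genes) and 6 and 17 in siEED (15.3% and 16.4%). In siRNF2 they were 8 and 18 (19.4% and 18.5%), and in siEED+RNF2 6 and 14 (19.5% and 19%). There were 3 higher and 0 lower in siRNF2 against siEED (against 6.61% and 4.08% of all genes). In siEED+RNF2, 0 were higher and 6 lower against siEED (5.02% and 8.71%), and 2 higher and 6 lower against siRNF2 (6.03% and 11.3%). Interactions lay above and below 0 for 8 and 10 members (14.5% and 16%).

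With each array left out in turn, members lower than siNTC ranged from 0 to 1 in siWDR5, 0 to 2 in siEED and 1 to 2 in siRNF2, and higher ones from 1 to 2 in siSETD2. Against siSETD2, 1 to 2 were higher in siWDR5, 1 to 2 lower in siEED and 0 to 2 lower in siRNF2, and interactions above 0 ranged from 1 to 3. CLGN and HERPUD1 kept each of their calls against siNTC.

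Deviations of replicate 1 from the group mean correlated between groups at -0.11 to 0.16, so the numbers do not pair the arrays. With the replicate block, 5 members were higher and 2 lower in siRNF2, and counts in no comparison changed.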
